A study of Sus scrofa domesticus with 36 samples.

Results

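The genes described here encode proteins of the cytosolic ribosome. Members were taken by name: every row whose Ensembl identifier carries a pig symbol that starts with RPL or RPS and a digit, plus RPSA, RPLP0, RPLP1 and RPLP2, leaving out RPS6K kinases and names that end in L1 or L2. Of 25322 genes in the table, 11804 carry a symbol and 38 have such a name. After 10 kinases and 2 paralogs (RPL7L1 and RPL26L1) were set aside, 26 members remained, 11 of the large subunit and 15 of the small subunit. All 26 passed the filter on low counts. A further 30 ribosomal names, RPL3, its striated muscle paralog RPL3L, RPLP0 and RPSA among them, were not analysed here.

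Ribosomal proteins are made in near equal numbers, since each mature ribosome holds a single copy of most of them, and the acidic proteins of the large subunit's stalk (RPLP1 and RPLP2) are present in more copies. Their mRNAs start with a run of pyrimidines, the TOP motif, through which mTOR signalling and LARP1 set how well they are translated. In skeletal muscle and in fat alike, the number of ribosomes limits how much protein a cell can make, and muscle of young animals builds protein fast.

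RNA from subcutaneous backfat and from longissimus dorsi, a muscle along the back, was sequenced for 18 pigs, with 1 library per tissue and pig, named here as in the titles (Sample_231 and so on). The pigs were a commercial cross, Danbred 600 X Newsham NC32 in the protocol (the NC number differs between the breed labels), killed by captive bolt and exsanguination. The series places sampling at 3 weeks after weaning, whereas the labels give an age of 16 to 17 days and the stage weaning. By growth rate 9 of them came from percentile 10 or below of 1054 pigs and 9 from percentiles 60 to 70, but the class of a pig was not in the labels used here, so growth classes were not compared. The labels name no treatment or transgene. The question asked of the ribosomal protein genes was how their levels differ between the tissues and among pigs.

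Gene counts per library ran from 2990913 to 5373406 in adipose and from 4716541 to 6216459 in muscle. Counts outside any gene made up 34.5% ± 5.60 of adipose and 19.9% ± 4.01 of muscle libraries (SD, n = 18). All 4 adipocyte markers tested were higher in adipose and all 5 skeletal muscle markers were higher in muscle, and none of them stood at 0 in all libraries of either tissue. The summed muscle markers reached 108 to 23921 CPM (counts relative to library size, scaled by trimmed-mean factors) in adipose, against 61693 to 430853 in muscle, so that muscle genes were detected in adipose at widely varying levels. Macrophage (5 of 5), lymphocyte (4 of 4) and endothelial (3 of 3) markers were higher in adipose. In pieces of tissue, fewer cells of a type and less RNA per cell cannot be told apart.

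The 26 genes took a larger share of an adipose library than of a muscle library in every pig. Their summed counts were 1.80% of gene counts in the lowest adipose library (Sample_186), 2.25% at the median and 2.68% in the highest (Sample_114). In muscle the share was 0.844% in the lowest library (Sample_889), 1.25% at the median and 1.91% in the highest (Sample_572). The mean was 2.28% ± 0.244 in adipose and 1.33% ± 0.326 in muscle (SD, n = 18), and the ranges overlap slightly between pigs. Within a pig, adipose was higher in 18 of 18, by a ratio of 1.27 (Sample_735) to 2.64 (Sample_889) with a median of 1.90. A share depends on what else the library holds. With the 10 most abundant genes of each library taken out, none of them among the 26 members, the shares were 2.56% and 1.87%. Adipose was still higher in 18 of 18 pigs and the median ratio was 1.43.

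**Figure D1:**
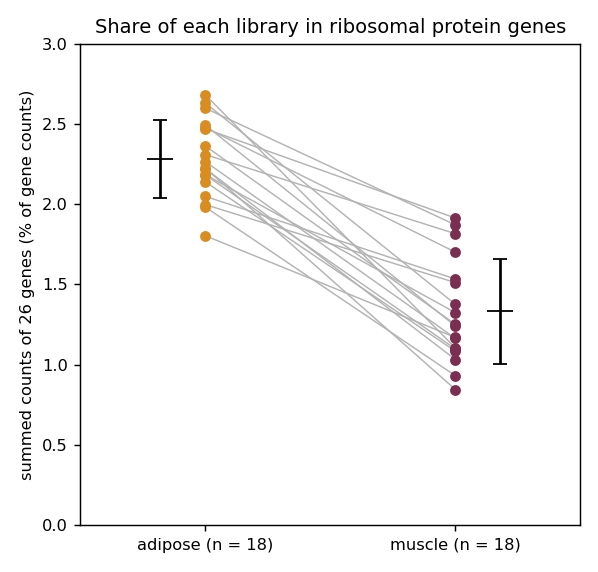
Summed counts of the 26 ribosomal protein genes as a percent of gene counts (vertical axis) in each library, with grey lines joining the tissues of a pig and black bars for the mean ± SD of 18 libraries. Every line falls from adipose (1.80 to 2.68%) to muscle (0.844 to 1.91%).

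Scaled to the bulk of genes instead of to the library total, most members stood on the muscle side. With trimmed-mean factors, edgeR's quasi-likelihood test with Benjamini-Hochberg adjustment placed 20 of 26 members higher in muscle and 3 higher in adipose, and 3 missed the threshold of 0.05. Of all 12542 genes tested, 39.2% were called higher in muscle, 46.7% higher in adipose and 85.9% in either direction. With library totals alone the directions turn: 25 members were then higher in adipose and 1, RPLP1, in muscle, beside 80.9% and 12.1% of all genes. That change of scale moved the median of all genes, 0.14 on the log2 scale (adipose minus muscle) with trimmed-mean factors, up by 1.37, and the members moved with it, from a median of -0.51 to 0.86. Set against the median gene, the members' median was -0.65 under the first scaling and -0.64 under the second, and the same 23 members lay below the median gene both times. A change of scaling shifts all genes by nearly the same amount, so this likeness follows from the arithmetic and tests nothing.

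Large differences were few among the members. With trimmed-mean factors a change of at least 2-fold was found for 3 of 26 (11.5%), RPLP1, RPS16 and RPS27L, against 48.2% of all genes. With library totals the count was 7 of 26, all higher in adipose, against 71.5% of all genes. On the trimmed-mean scale the libraries of both tissues failed to overlap for 3 of 26, RPLP1, RPS27L and RPL36AL, against 32.4% of all genes. The subunits gave like medians: -0.58 for the large subunit, with 8 higher in muscle, 2 in adipose and 1 past neither way, and -0.43 for the small subunit, with 12, 1 and 2.

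**Figure D2:**
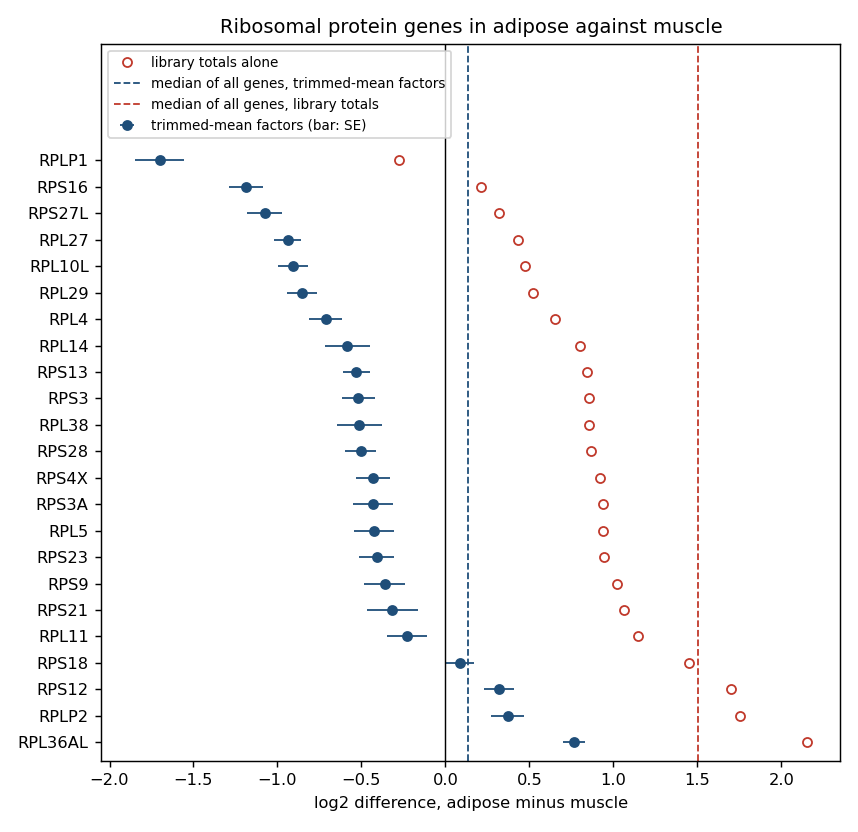
Log2 difference of 23 of the 26 ribosomal protein genes (rows), adipose minus muscle, with trimmed-mean factors (filled points, bars are the SE) and with library totals alone (open points); dashed lines mark the median of all genes under each scaling. The open points of all genes drawn but RPLP1 lie right of 0, while most filled points lie left of 0. The place of each gene against its own dashed line is much the same, since a change of scaling shifts all genes nearly alike.

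The farthest on the muscle side was RPLP1 (ENSSSCG00000004970), an acidic protein of the stalk with which the large subunit engages elongation factors. In muscle it ran from 1969 CPM (Sample_889) through a median of 3323 to 10064 (Sample_231), and in adipose from 943 through 1060 to 1484. The tissues did not overlap, and the muscle library of Sample_231 stood far above the next highest, Sample_656 at 4420. The log2 difference was -1.70 (SE 0.146, adjusted p = 1.36e-13 by edgeR's quasi-likelihood test), and -1.58 without Sample_231 and Sample_889. RPLP1 was also the single member higher in muscle with library totals, at -0.28 (adjusted p = 0.0220 by the same test).

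RPS16, a small subunit protein whose tail reaches the tRNA, had a median of 250.1 CPM in adipose (194 to 314) and 545 in muscle (275 to 1043). The ranges touch, but muscle was higher in all 18 pigs, with a log2 difference of -1.19 (SE 0.102). RPS27L, a paralog of RPS27 known as a target of p53, ran from 38.4 to 97.0 CPM in adipose and from 98.4 to 230.5 in muscle, with no overlap and a difference of -1.08 (SE 0.106). RPL10L, a paralog of RPL10 best known from the testis, had a median of 30.9 CPM in adipose and 58.6 in muscle, a difference of -0.91 (SE 0.0913). RPL27 (-0.94, SE 0.0805) and RPL29 (-0.85, SE 0.0888) followed. Muscle was higher in 18 of 18 pigs for RPLP1, RPS16, RPS27L, RPL27 and RPL10L, 5 of 26 members against 25.2% of all genes. With library totals RPS16, RPS27L, RPL10L, RPL27 and RPL29 turned to 0.21, 0.32, 0.48, 0.43 and 0.52.

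Against this direction stood RPL36AL (ENSSSCG00000005006), a near copy of RPL36A. It ran from 35.7 through a median of 46.5 to 56.6 CPM in adipose and from 19.97 through 28.2 to 32.8 in muscle. The tissues did not overlap, and adipose was higher in 18 of 18 pigs, 1 of 26 members against 28.6% of all genes. The difference was 0.77 (SE 0.0669, adjusted p = 2.09e-13 by edgeR's quasi-likelihood test). RPLP2, the partner of RPLP1 in the stalk, had medians of 708 CPM in adipose and 543 in muscle, a difference of 0.37 (SE 0.0975) with adipose higher in 16 pigs. RPS12, a small subunit protein, had medians of 894 and 734, a difference of 0.32 (SE 0.0896) with adipose higher in 15 pigs. For RPLP2 and RPS12 the ranges overlap widely. With library totals the 3 stood at 2.15, 1.76 and 1.70. That scaling shifts all genes toward adipose by nearly the same amount, so a gene already higher there could not turn.

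The other members lay closer together. Among those with the highest mean CPM, a ranking that takes no account of gene length, RPL4, which lines the exit tunnel of the large subunit, had a median of 1349 CPM in adipose and 2155 in muscle. Its difference was -0.71 (SE 0.101), and muscle was higher in 17 pigs. RPS3A, RPS4X and RPS3 of the small subunit gave -0.43, -0.43 and -0.52, with overlapping tissues in each case and muscle higher in 15 to 17 pigs. RPL5 (-0.43) and RPL11 (-0.23) sit together on the large subunit with a small ribosomal RNA and can bind MDM2 when ribosome assembly fails. RPL5 passed the test and RPL11 did not (adjusted p = 0.0708 by edgeR's quasi-likelihood test). RPS18 (0.09, adjusted p = 0.323) and RPS21 (-0.32, adjusted p = 0.0519) also missed the threshold in the same edgeR test. With the pig as a block RPS21 passed it, at -0.33 (adjusted p = 0.000311 by edgeR's quasi-likelihood test). With the block 21 members were higher in muscle and 3 in adipose, beside 39.4% and 47.4% of all genes. Higher in muscle too, in 13 to 17 pigs each, were RPL14 (-0.58) and RPL38 (-0.51) of the large subunit, RPS23 (-0.41) and RPS9 (-0.36), which bear on decoding accuracy, and RPS13 (-0.53) and RPS28 (-0.50). With library totals each of the members in this paragraph was higher in adipose.

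The balance among the members does not use a scaling factor. For each library the log2 count of a member (plus 0.5) was set against the mean of the 26 in that library. The shifts of the 26 members therefore cancel out, so some must lean each way, and a lean is relative to the other members. By this measure RPLP1 lay 2.75 ± 0.326 above the mean of the members in muscle and 1.61 ± 0.136 above it in adipose (SD, n = 18), a shift of -1.14 in the same direction in 18 of 18 pigs. RPS16 (-0.68), RPS27L (-0.60), RPL27 (-0.47) and RPL29 (-0.36) also leaned to muscle in every pig. RPL36AL (1.24), RPLP2 (0.86), RPS12 (0.80) and RPS18 (0.58) leaned to adipose in every pig. The stalk partners therefore moved apart: RPLP2 went from 0.995 ± 0.185 above the members' mean in adipose to 0.14 ± 0.220 in muscle while RPLP1 went the other way. For RPLP1, RPS16, RPL27, RPL29, RPS18, RPS12 and RPLP2, 7 of 26, the relative levels of the tissues did not overlap. Centred on the same mean, 25.8% of all genes did not overlap, and 15.6% leaned to muscle and 36.4% to adipose in every pig, beside 5 and 4 of the 26 members. The shifts of all genes need not cancel out, so these shares are not a like comparison. RPS3 (-0.03) and RPL38 (-0.01) held their place, higher in adipose in 8 and 10 of 18 pigs. For RPL10L, RPL36AL and RPS27L, which have near copies (RPL10, RPL36A and RPS27), and for members with processed copies in the genome, how reads shared with a copy were counted is not known here, so their levels are uncertain.

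**Figure D3:**
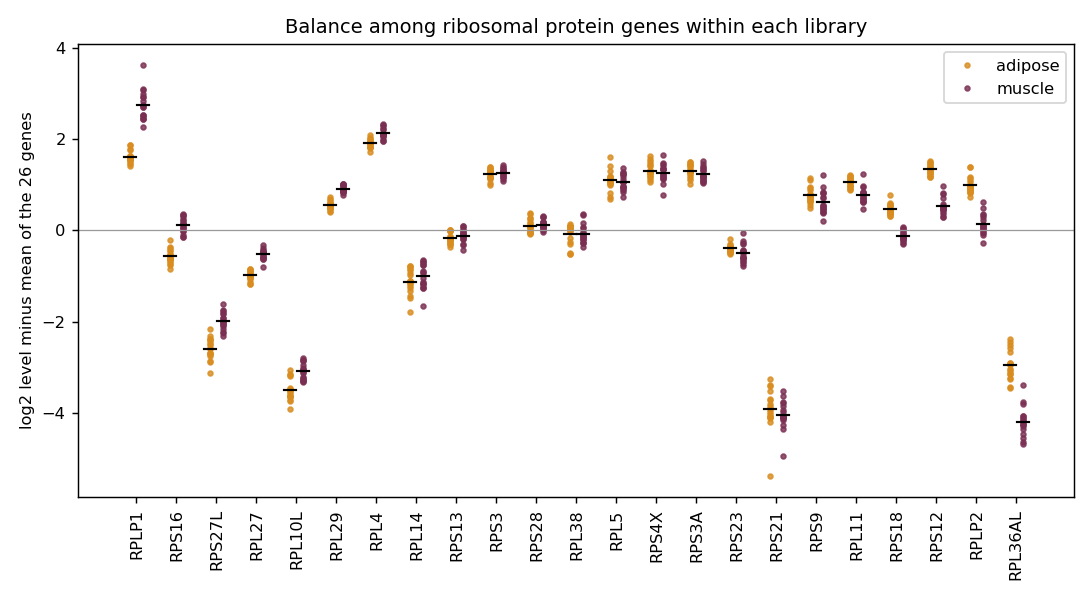
Log2 level of 23 genes minus the mean of the 26 genes in the same library (vertical axis), for 18 adipose and 18 muscle libraries, with black bars at the tissue means. Genes are ordered by the difference between tissues, from RPLP1 (-1.14) to RPL36AL (1.24), and the points of RPS3 and RPL38 lie level in both tissues.

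Most members varied less from pig to pig than the median gene did. Their median SD of log2 CPM was 0.232 in adipose, against 0.317 over all genes, with 21 of 26 below the latter, and 0.308 in muscle, against 0.370, with 16 of 26 below. The members also stood far above the median gene in level. Their mean log2 CPM was 8.50 in adipose and 8.99 in muscle at the median pig, against 3.97 to 4.13 for the median gene. Spread was not compared with genes of like level. In adipose RPS21 (SD 0.524), RPL14 (0.430) and RPL5 (0.375) varied most. RPS21 was lowest in Sample_242 in both tissues (adipose 8.11 CPM, muscle 15.9 CPM). In muscle RPLP1 (0.499), RPL38 (0.434) and RPS21 (0.433) varied most. RPL38, a large subunit protein whose loss disturbs the patterning of the axial skeleton in mice, was highest in Sample_231 at 1033 CPM and lowest in Sample_889 at 281.

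A pair of muscle libraries marked the ends of the range. Sample_231 held the highest muscle level of 20 of 26 members and Sample_889 the lowest of 23. The mean log2 CPM of the members was 9.66 in Sample_231, 8.25 in Sample_889 and 8.99 at the median. Neither library stood at an end in depth, in counts outside genes (18.2% and 17.7%) or in the muscle actin ACTA1 (164854 and 114165 CPM). Their trimmed-mean factors were 0.498 and 0.693, against a muscle mean of 0.626 and a lowest of 0.496 (Sample_242). By share of gene counts Sample_889 was again lowest (0.844%), but Sample_231 (1.87%) came after Sample_572 (1.91%). The cause of the levels in Sample_231 and Sample_889 was not tested. The adipose libraries of the same pigs did not mark the ends: there Sample_835 held the lowest level of 10 members and Sample_186 of 7, while Sample_656 held the highest of 9. The adipose library of Sample_656 was also the shallowest and had the most counts outside genes (53.8%), whose part in its member levels was not tested. Over the 18 pigs the mean member level in adipose and muscle gave Spearman's rho = 0.375 as a description.

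**Figure D4:**
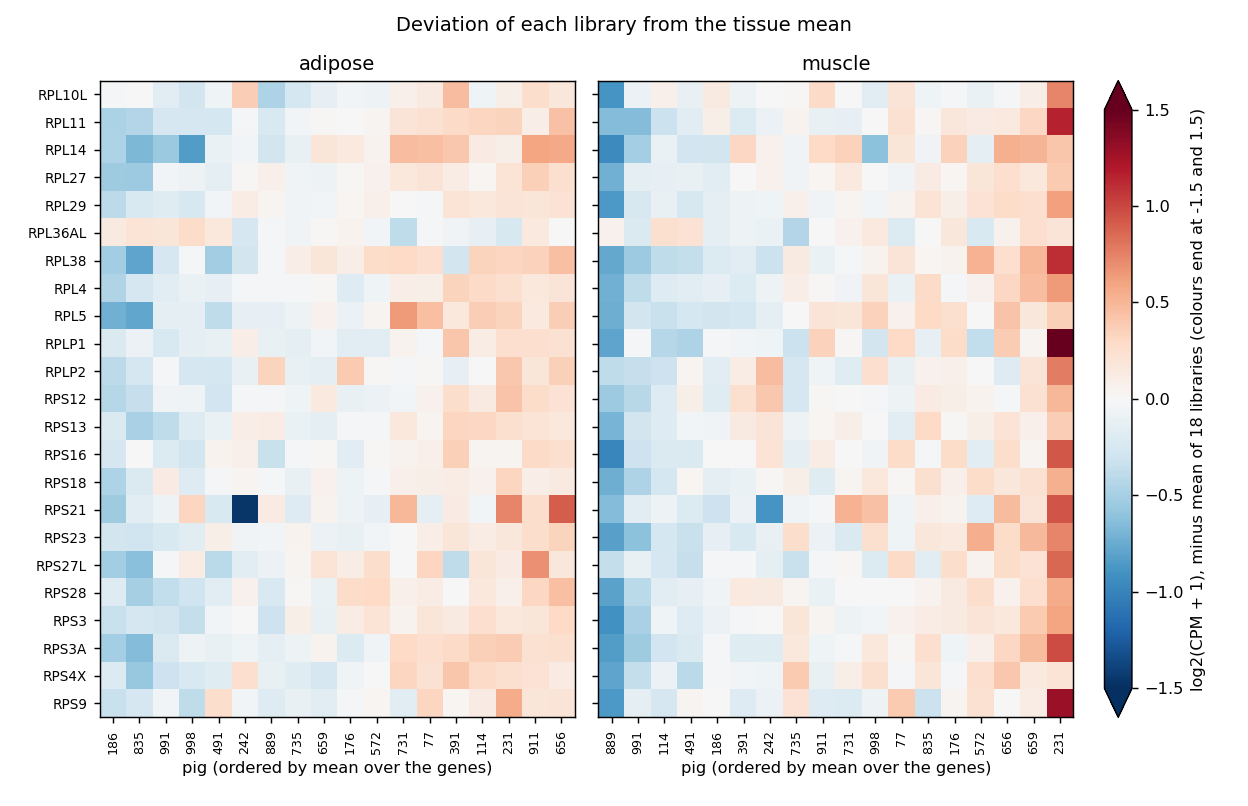
Deviation of log2(CPM + 1) from the mean of 18 libraries for 23 ribosomal protein genes (rows) and each pig (columns, ordered by the mean over all 26 genes within each tissue); red is above and blue below the mean. The muscle columns of Sample_889 and Sample_231 are blue and red in nearly every row, and the adipose row of RPL36AL runs against the others.

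Member levels ran in parallel across pigs. Over the 325 pairs of members, the median Spearman's rho over 18 libraries was 0.639 in adipose with 92.3% of pairs positive, and 0.589 in muscle with 97.5% positive. Over all pairs of genes tested the medians were 0.0031 and -0.00105. Pairs within the large subunit, within the small subunit and between them were alike (0.651, 0.606 and 0.643 in adipose). These values are descriptions over libraries that share depth and scaling, with no test. Pairs of members were not compared with pairs of genes of like level. With library totals the medians were 0.509 in adipose and 0.800 in muscle, where all pairs of genes stood at 0.0712 and 0.267. Without Sample_231 and Sample_889 the muscle median was 0.426.

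The closest pair in muscle was RPL38 with RPS23 (rho 0.946). RPL5 and RPL11 were each other's best match in adipose, at 0.928. RPL36AL stood apart from the rest. In adipose it was negatively related to every other member, with rho from -0.794 to -0.141 and a median of -0.441, and in muscle its median was 0.0506. The next lowest medians over the other members were 0.449 for RPL10L in adipose and 0.296 for RPL10L in muscle.

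ACTA1, the skeletal muscle actin, differed widely between adipose libraries, and the members were set beside it. Within adipose the level of ACTA1, from 52.4 to 17526 CPM, had a median rho of 0.479 with the members, positive for 25 of 26 and -0.53 for RPL36AL, against 0.030 over all genes. None of the 26 passed an adjusted p of 0.05 by permutation, where 2.04% of all genes did, and 14 of 26 had an unadjusted permutation p under 0.05, where 13.9% of all genes did. With the ACTA1 level removed, the median rho among members in adipose was 0.562, and without the 4 pigs Sample_731, Sample_391, Sample_176 and Sample_911, which had the highest ACTA1, it was 0.670. Depth gave medians of -0.033 in adipose and -0.015 in muscle. The relation with ACTA1 was computed on the trimmed-mean scale alone. The factors of Sample_731, Sample_391, Sample_911 and Sample_176 in adipose were 1.39, 1.36, 1.46 and 1.64, against a mean of 1.62. Their member shares were 2.14, 2.18, 2.36 and 2.27% in the same order, against a mean of 2.28%. How far the relation depends on scaling was not tested. Within adipose the macrophage markers were related negatively to the mean level of the members (median rho -0.370, 0 of 5 positive), as were lymphocyte markers (-0.488, 0 of 4 positive). Both lists were negative in muscle as well (-0.284, 0 of 5, and -0.202, 0 of 4). Endothelial markers had medians of 0.360 in adipose (3 of 3 positive) and 0.197 in muscle (2 of 3). Adipocyte markers had 0.200 (3 of 4) and -0.194 (1 of 4). The part of these cell types in the member levels was not tested.

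Few members were correlated between the tissues of a pig. Spearman's rho between tissues over 18 pigs, with 100000 permutations and Benjamini-Hochberg adjustment over 11109 genes, passed for 1 of 26 members, RPL14, where 0.567% of all genes passed. The correlation was positive for 23 of 26 with a median of 0.244, beside 75.0% of all genes and a median of 0.185. At an unadjusted permutation p under 0.05 there were 5 of 26, against 14.2% of all genes.

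RPL14, a large subunit protein, ran from 92.8 CPM (Sample_998) through 175 to 251 (Sample_911) among adipose libraries and from 129 (Sample_889) through 252 to 362 (Sample_656) among muscle libraries. Its rho was 0.781 (permutation p = 0.000170, adjusted p = 0.0385) and Pearson's r 0.750 (adjusted permutation p = 0.0235), or 0.772 once the 2 pigs whose adipose level lay farthest from its median were dropped. The adjusted p lay near the threshold: the call held when Sample_114, Sample_231, Sample_835 or Sample_911 was left out and was lost with each of the other 14. Over all 18 of these, rho ran from 0.750 to 0.811 and the adjusted permutation p from 0.0439 to 0.0826. With the ACTA1 level in adipose removed its rho was 0.538 (adjusted permutation p = 0.291), and with the first principal component removed 0.356 (adjusted permutation p = 0.649). No member passed in either setting, where 16 and 8 of all 11109 genes did, in the same order. With library totals its rho was 0.641 (adjusted permutation p = 0.0787) and with the library total removed 0.744 (adjusted permutation p = 0.0741). RPS21 had rho 0.703 (adjusted permutation p = 0.0863) and r 0.814 (adjusted permutation p = 0.0178), or 0.732 after the same step, and it passed by Pearson's r, where 2 of 26 members and 1.81% of all genes did. RPS27L followed with rho 0.544 (adjusted permutation p = 0.251). The lowest were RPLP2 (-0.179), RPS18 (-0.137) and RPS4X (-0.127), and Pearson's r was slightly positive for all 3.

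**Figure D5:**
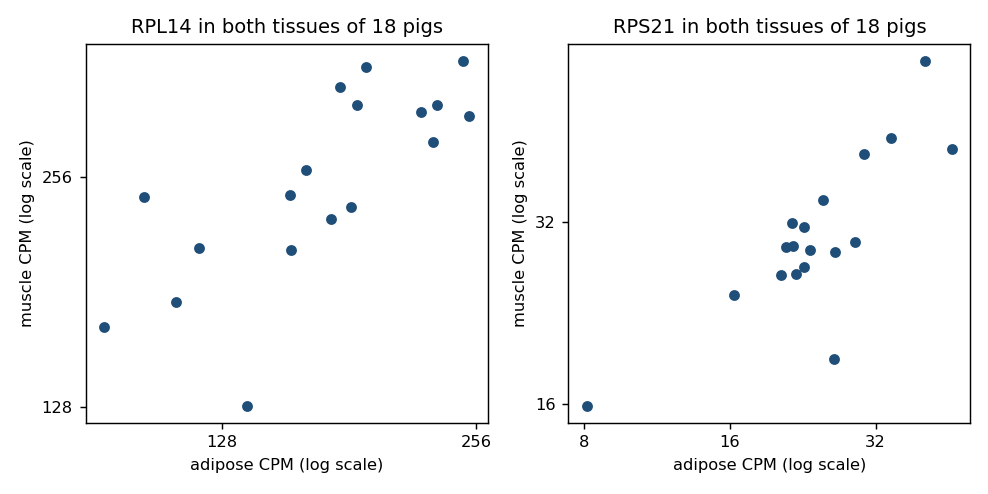
CPM of RPL14 and of RPS21 in muscle (vertical axis, log scale) against adipose (horizontal axis, log scale) of the same pig, 1 point per pig. RPL14 spreads along a rising band (rho 0.781), and RPS21 has its lowest point, Sample_242, at lower left.

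The genes that work with ribosomes leaned to muscle as well, several by more than the ribosomal proteins. All 4 elongation genes tested were higher in muscle, with a median of -1.67. Of all genes, 39.2% were higher in muscle and 46.7% in adipose, or 12.1% and 80.9% with library totals. EEF2, which moves the ribosome along the mRNA, ran from 1265 through a median of 2071 to 3107 CPM in adipose and from 2680 through 5804 to 11606 in muscle, a log2 difference of -1.52 (SE 0.146). EEF1D (-1.88) and EEF1B2 (-0.71) exchange the nucleotide of the factor that brings tRNA, and EEF2K (-1.83) is the kinase that halts EEF2. With library totals 2 of the 4 stayed higher in muscle and 1 turned to adipose (EEF1B2, 0.67), EEF2 stood at -0.19 without passing (adjusted p = 0.241 by edgeR's quasi-likelihood test), and the median was -0.31.

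Of 21 initiation genes 18 were higher in muscle and 3 in adipose (39.2% and 46.7% of all genes), with a median of -1.09. EIF1, which guards the choice of start codon, ran from 251 to 545 CPM in adipose and from 1582 to 2473 in muscle with no overlap, a difference of -2.53 (SE 0.0955) that kept its direction with library totals (-1.17). EIF4G2 (-1.65) and EIF4G1 (-1.33), scaffolds of initiation, and the helicase EIF4A2 (-1.09) were higher in muscle too. With library totals the list split into 11 higher in adipose and 5 in muscle (80.9% and 12.1% of all genes). EIF4G1 then stood at 0.04, EIF4A2 at 0.27 and EIF4G2 at -0.27.

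Of 38 ribosome biogenesis genes tested, 25 were higher in muscle, 3 in adipose and 10 did not pass, with a median of -0.35. Among all genes 39.2% were higher in muscle and 46.7% in adipose. NPM1 (-0.39), a nucleolar chaperone, DDX21 (-0.30), an RNA helicase of the nucleolus, and NOLC1 (-0.61), which serves RNA polymerase I, were higher in muscle. BYSL (0.65), needed for the small subunit, was higher in adipose. With library totals 36 were higher in adipose and 1 in muscle (80.9% and 12.1% of all genes), with a median of 1.02. NPM1, DDX21 and NOLC1 then turned positive.

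Of 15 genes of the mTOR pathway and of TOP mRNA control, 11 were higher in muscle and 2 in adipose (39.2% and 46.7% of all genes). Their median was -0.59. With library totals the median was 0.74, and 12 were higher in adipose and 2 in muscle (80.9% and 12.1% of all genes). EIF4EBP1, the repressor of cap-dependent initiation that mTOR switches off, ran from 54.6 to 97.0 CPM in adipose and from 173 to 924 in muscle with no overlap, a difference of -2.50 (SE 0.172) that stayed negative with library totals (-1.21). RHEB (-0.89), which activates mTOR, and SESN1 (-0.57), which restrains it, were higher in muscle with trimmed-mean factors and turned positive with library totals (0.47 and 0.74). PDCD4 (1.14), an inhibitor of the helicase EIF4A, was higher in adipose in 18 of 18 pigs.

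Among proteins fused to or carried by ribosomes, RACK1 (-0.73), BTF3 (-1.16), which shields nascent chains, and SERBP1 (-1.33), which binds idle ribosomes, were higher in muscle, and turned to 0.63, 0.19 and 0.04 with library totals, where BTF3 and SERBP1 missed the threshold. FAU, whose product is cut to release the small subunit protein eS30, was higher in adipose, at 0.70. With library totals, which shift all genes toward adipose, it stood at 2.07 and could not have turned. RPL7L1 (-0.25, adjusted p = 0.00157) and RPL26L1 (-0.23, adjusted p = 0.0417), the paralogs kept out of the members, were both higher in muscle by edgeR's quasi-likelihood test, and turned to 1.13 and 1.15 with library totals. RPL26L1 lay near the threshold: it missed it in 9 of 18 fits with 1 pig left out, where the adjusted p by the same edgeR test ran from 0.0168 to 0.134. The highest, with a difference of -0.14, came without Sample_231. It also missed the threshold with no filter on low counts (adjusted p = 0.0774 by edgeR's quasi-likelihood test).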

How the data were processed

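The authors deposited expected counts, not normalised, for 25322 genes in 36 libraries. The deposited values run in steps of 0.5 (35.1% not whole, 48.9% among the members), and no source used here says why. The submitters' processing notes name GSNAP and HTSeq. Versions, genome build, annotation and strand were not given in the sources used here. In each library 0 reads were listed as aligned to several places, and how reads shared by near copies were counted is not stated. A further 5 lines without a gene (most of them counts outside genes, whose share the text gives) stayed out of library sizes. For tests, values were made whole by rounding, with ties going to the even number, and 0 columns were unused. Symbols came from a table of current gene names.

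Tissue and pig were read from the titles. Each number stands for 1 pig, which pairs its libraries. In a check over 11109 genes, deviations from the tissue mean correlated at 0.231 on average between the libraries of a pig (0.0996 to 0.368) and at -0.0137 between pigs, and 10 of 18 pigs matched their own muscle best.

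The tissue test was edgeR's quasi-likelihood test (version 4.0.16, R 4.3.3, robust, design of tissue alone, trimmed-mean factors, default filter, 12542 genes), with Benjamini-Hochberg adjustment over all genes and a threshold of 0.05. Adipose libraries had a mean trimmed-mean factor of 1.62 and muscle libraries 0.626. Each SE was derived from the log2 difference and its F statistic. Tissues were correlated on log2 CPM with a prior count of 2, over 11109 genes with at least 1 CPM in 15 of 18 libraries of each tissue, with 100000 two-sided permutations. This used SciPy 1.17.1, NumPy 2.4.6, numba 0.67.0 and pandas 2.3.3 under Python 3.11.15, and Matplotlib 3.10.9 drew the figures. Alternatives were library totals, no low-count filter, DESeq2 1.42.0, the pig as a block, doubled values, Pearson's r, covariates removed, and pigs left out. Those on the relation among members and on leaving out Sample_231 and Sample_889 were chosen after seeing the data. On simulated data the tissue test recovered 70 of 100 genes at 1.5-fold and 84 of 100 at 2-fold, with 5 unchanged genes called among 12202, and the correlation test recovered 169 of 200 with 4 false calls among 11109. The tissue simulation changed few genes, as many toward each tissue, and held no pairing of pigs. It therefore does not test the scaling in data where 85.9% of genes were called.

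The members, the 13 gene lists and the named-gene rule were chosen with earlier results of these data known. The rule takes paralog pairs among the members, the 6 members with the largest difference each way, the 6 of highest mean CPM, the 3 of largest SD in each tissue, the 3 of highest and of lowest rho between tissues, and from each list up to 4 tested genes by mean CPM. Other members are given beyond the rule. Of the 26, 3 are not reported here by name but enter all counts, medians and sums, and the genes singled out for their relation to other members or as the ends of a list beside the mean member level were chosen after their values were seen. Keratinocyte markers (1 of 3 higher in muscle, 0 in adipose) and erythroid markers (1 of 2 higher in adipose) were checked as well. Gene lengths were not used: ranks by CPM served only to choose genes to name, and levels relative to the members' mean are compared only between tissues. No counting intervals are given, since the replicates carry that error.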

Additional observations from a re-analysis of the deposited data

How the results depend on the processing

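Scaling decides the direction of most tissue differences. With library totals alone 25 members were higher in adipose and 1 in muscle (80.9% and 12.1% of all genes), with a median of 0.86. The log2 differences then became 0.48 for RPL10L, 1.15 for RPL11, 0.80 for RPL14, 0.43 for RPL27, 0.52 for RPL29, 0.86 for RPL38, 0.65 for RPL4, 0.94 for RPL5, 0.84 for RPS13, 0.21 for RPS16, 1.06 for RPS21, 0.95 for RPS23, 0.32 for RPS27L, 0.87 for RPS28, 0.85 for RPS3, 0.94 for RPS3A, 0.92 for RPS4X and 1.02 for RPS9. Outside the members they became 1.15 for RPL26L1, 1.13 for RPL7L1, 0.47 for RHEB, 0.74 for SESN1, 1.07 for DDX21, 0.76 for NOLC1, 0.94 for NPM1, 0.19 for BTF3, 0.63 for RACK1, 0.043 for SERBP1, 0.67 for EEF1B2, 0.27 for EIF4A2 and 0.041 for EIF4G1. That setting also gave a median SD of 0.206 in adipose and 0.379 in muscle, and a median rho among members of 0.509 and 0.800. It raised the share of all calls that lie on the adipose side from 54.3% to 87.0%. DESeq2 gave 3 members higher in adipose and 20 in muscle (44.2% and 31.4% of all genes). No filter on low counts gave the same numbers of members, beside 9077 and 5805 of 20197 genes. The fit with the pig as a block gave 3 and 21 (47.4% and 39.4% of all genes), adding RPS21, and changed no other call among members. Doubled values gave 3 and 22 (46.6% and 38.8% of all genes). Leaving out each pig in turn gave 3 members higher in adipose each time, 20 to 22 higher in muscle, and medians from -0.54 to -0.46. Those fits called 5803 to 5947 genes higher in adipose and 4810 to 4940 in muscle, among 12544 to 12599 tested. RPL11 passed when Sample_114, Sample_391 or Sample_889 was left out and RPS21 when Sample_242, Sample_656 or Sample_889 was. The number of members correlated between tissues was 2 by Pearson's r and 0 with library totals, with the first principal component, the ACTA1 level or the library total removed, without Sample_731, Sample_391, Sample_176 and Sample_911, and without Sample_656, Sample_572 and Sample_735. It ran from 0 to 1 when each pig was left out, and the cause was not tested. Of all 11109 genes, 8 passed with the first component removed, 16 with ACTA1 removed and 45 with the library total removed. Without those sets of pigs 10 and 15 passed, and with library totals more than the main 0.567%. At an unadjusted permutation p under 0.05 the settings with 0 had 1 to 6 of 26 members. That share lay below the share of all genes with library totals (5 members), the first component removed (1) and ACTA1 removed (3). It lay above with the library total removed (4) and with single pigs left out, except Sample_991. The sets of pigs were split. By Pearson's r the value was 0.0469 for RPLP2, 0.102 for RPS18 and 0.0479 for RPS4X, and RPS18 had rho 0.0568 with library totals and 0.0547 with the first component removed. The adipose share was 1.47% of all counts and 2.56% without the 10 most abundant genes, where the muscle share was 1.87%. Each pig left out gave shares of 2.26 to 2.31% and 1.30 to 1.36%, median SDs of 0.214 to 0.238 and 0.261 to 0.318, and median rho among members of 0.591 to 0.654 and 0.517 to 0.618. That rho was 0.562 in adipose with ACTA1 removed and 0.426 in muscle without Sample_231 and Sample_889.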

Other observations

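The mean level of the 26 members was set beside other genes of translation across the pigs of a tissue, and the lists differed. Initiation genes had a median rho of 0.449 in adipose (16 of 21 positive) and 0.333 in muscle (18 of 21), from EIF4G1 at -0.573 to EIF1 at 0.851 in adipose and from EIF3A at -0.228 to EIF2S2 at 0.808 in muscle. Elongation genes had medians of 0.601 and 0.535 (3 of 4 positive in each), from EEF2K at -0.366 to EEF1D at 0.779 in adipose and from EEF2K at -0.059 to EEF1B2 at 0.802 in muscle. Biogenesis genes had a median of -0.066 in adipose (17 of 38 positive), from NOLC1 at -0.418 to BRIX1 at 0.750. In muscle their median was 0.348 (32 of 38 positive), from NAT10 at -0.354 to TAF1A at 0.736, and the difference between tissues was not tested. The mTOR and TOP genes had medians of 0.042 (8 of 15 positive) and 0.096 (11 of 15), from LARP1 at -0.554 in adipose and LARP4 at -0.457 in muscle to RHEB at 0.705 and 0.738. Of the proteins fused to or carried by ribosomes, FAU was lowest and BTF3 highest in both tissues (-0.152 and 0.800 in adipose, 0.224 and 0.686 in muscle). All genes tested had medians of -0.00929 and -0.0114. These are descriptions over 18 libraries that share depth and scaling, the genes named are the ends of each list, and no p is given.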
